A study of Homo sapiens with 31 samples.

Results

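The 9 genes described here encode aldo-keto reductases (AKR1A1, AKR1B1, AKR1B10, AKR1C1, AKR1C2, AKR1C3 and AKR7A2) and carbonyl reductases (CBR1 and CBR3). They were taken by name from a table of 19221 genes, and all 9 were found in it. mRNA was sequenced from 31 libraries of human cell lines that the study used as ovarian cancer lines. The values were FPKM, which are fragment numbers divided by gene length and by library size. C13* is a cisplatin-resistant line that is proficient in homologous recombination, and it carried either a control shRNA (C13* shCON, n = 7) or an shRNA against CEBPB delivered by lentivirus (C13* shCEBPB, n = 8). A2780 was untreated and is, by its label, the parent line of the other pair (A2780, n = 8). A2780 OlaR (n = 8) is, by the study, 1 strain obtained from A2780 by growth in rising olaparib, an inhibitor of poly(ADP-ribose) polymerase. Its label reads treated with Olaparib. All libraries are labelled as adenocarcinoma cells of ovarian carcinoma. The study itself questions the use of C13* because of its origin. It also says that A2780 was reported as an unlikely line of high-grade serous ovarian cancer. CEBPB encodes C/EBPβ, the transcription factor whose part in resistance to such inhibitors the study examined. The study calls the libraries biological replicates, but nothing says that they came from separate cultures, so p-values measure the spread between these libraries, which may be technical.

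Aldo-keto reductases and carbonyl reductases use NADPH to turn aldehydes and ketones into alcohols. The AKR1C enzymes act on steroids and prostaglandins, the AKR1B enzymes on sugars, lipid aldehydes and retinal, and the CBR enzymes, which belong to the short-chain dehydrogenases, on quinones, prostaglandins and anthracyclines. Several of these genes, among them AKR1B10 and the AKR1C genes, are known targets of NRF2, the transcription factor of the response to oxidants and electrophiles. In tumor cells these enzymes are known for clearing reactive carbonyls and for turning over carbonyl drugs.

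FPKM carry no read totals, so absolute depth is unknown, and neither counting intervals nor limits for values of 0 could be set. The relative depth read from the steps of low values differed by at most 1.42 times between libraries. Before any result, the labels were compared with the libraries. Over 12967 genes, the group means of log2(FPKM + 1) of A2780 OlaR correlated with those of C13* shCON at r = 0.993, with 69 genes at least 1 apart on the log2 scale, and with those of its labelled parent A2780 at r = 0.709, with 4517 genes as far apart. C13* shCON and C13* shCEBPB had r = 0.791 and 3585 such genes. Markers went the same way, since KRT5, a keratin of squamous epithelium, was at 1368 to 1633 FPKM in C13* shCON and at 1619 to 1991 in A2780 OlaR, and at most 0.0416 in the other libraries. VIM, a mesenchymal filament, was at 784 to 827 in A2780, at 328 to 360 in C13* shCEBPB, at 8.49 to 10.5 in C13* shCON and at most 0.265 in A2780 OlaR. Of the ovarian carcinoma markers, MUC16 stayed at or under 0.881 in every library, WT1 at or under 1.23, and PAX8 was at 5.18 to 6.93 in C13* shCON and A2780 OlaR and under 1 elsewhere. The other 5 were higher in some groups, with EPCAM at 102 to 128 in C13* shCON and A2780 OlaR and at most 1.56 elsewhere, and KRT8 at 427 to 992 outside A2780 and 5.26 to 6.66 in it. KRT18 was at 78.1 to 586 over all libraries, and KRT7 (492 to 636) and MUC1 (79.0 to 110) had their highest levels in C13* shCEBPB. CEBPB, the target of the knockdown, was at 75.2 to 101 FPKM in C13* shCON and at 30.2 to 58.7 in C13* shCEBPB, and it was at 85.6 to 111 in A2780 and 97.1 to 127 in A2780 OlaR. The cell line field of C13* shCON replicate 1 reads A2780, while its title reads C13*, so the title decided its group. The part of these differences between lines in the results below was not tested, and in bulk libraries a smaller share of cells and less RNA per cell cannot be told apart.

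The members lie in clusters that hold related genes. On hg38, with positions from GENCODE 44, AKR1C1 (chromosome 10, 4963253 to 4983283, plus strand), AKR1C2 (4987775 to 5018031, minus strand) and AKR1C3 (5035354 to 5107686, plus strand) follow each other with 4491 and 17322 bp between them, and each has 9 exons in its main transcript. AKR1B1 (chromosome 7, 134442356 to 134459284, minus strand) and AKR1B10 (134527567 to 134541412, plus strand) have 10 exons each and lie 68282 bp apart. CBR1 (chromosome 21, 36069941 to 36073166) and CBR3 (36135079 to 36146562) are on the plus strand with 3 exons each and 61912 bp between them. AKR7A2 (19303965 to 19312144, minus strand, 7 exons) and AKR1A1 (45550543 to 45570049, plus strand, 9 exons) are both on chromosome 1, far from each other.

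The AKR1C genes are so alike that their reads can be hard to assign, and the stretch of coding sequence where the 3 members differ most is shown for that reason. It covers coding bases 85 to 204, 120 bases within exon 2, at chr10:4965914-4966033 in AKR1C1, at chr10:5001562-5001681 in AKR1C2 (minus strand) and at chr10:5096410-5096529 in AKR1C3. Capitals mark bases that differ from AKR1C1, which are 10 in AKR1C2 and 9 in AKR1C3.
AKR1C1: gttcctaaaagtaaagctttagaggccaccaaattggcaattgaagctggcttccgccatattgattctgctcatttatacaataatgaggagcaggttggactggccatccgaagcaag
AKR1C2: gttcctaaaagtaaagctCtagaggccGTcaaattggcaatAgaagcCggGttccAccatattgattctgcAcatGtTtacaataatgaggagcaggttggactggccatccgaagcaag
AKR1C3: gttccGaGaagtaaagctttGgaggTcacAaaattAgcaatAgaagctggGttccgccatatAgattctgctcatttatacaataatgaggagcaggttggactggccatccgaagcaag

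Over the whole coding sequence of 969 bp, AKR1C1 and AKR1C2 differed at 19 bases (98.0% identity) and had an identical run of 186 bp, which is longer than a read of 150 bases. AKR1C3 was 91.4% identical to AKR1C1 and 91.0% to AKR1C2. Of the 150-base windows of the main transcript, 7.91% in AKR1C1 (506 of 6394), 17.2% in AKR1C2 (528 of 3066) and 2.12% in AKR1C3 (22 of 1037) were found unchanged in another gene, which was always another of these 3. How the authors' counting treated such reads is not stated, so the split between AKR1C1 and AKR1C2 is uncertain. The window shares hold for these main transcripts. The annotation behind the FPKM is not given, so they set no limit on that uncertainty. AKR1B1 and AKR1B10 (75.2% identity over 948 bp) and CBR1 and CBR3 (77.0% over 831 bp) had no such window in common. For CBR1, 464 exonic bp overlap the antisense gene CBR1-AS1 and 21.9% of windows also lie in an unnamed long noncoding RNA on the same strand, and for CBR3, 710 exonic bp overlap CBR3-AS1. Whether counting used the strand is not stated, so reads of these partners cannot be told apart.

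The 250 bases before the start of each main transcript were read from RefSeq (GRCh38.p14), where 7 of the 9 members had an entry, all but AKR1B10 and CBR3. This start can lie inside the gene span given above, as it does for AKR1C2 and AKR1C3. The stretches of the AKR1C genes are shown because these neighbours moved in different directions. They are chr10:4963165-4963414 for AKR1C1, chr10:5003858-5004107 (minus strand) for AKR1C2 and chr10:5094164-5094413 for AKR1C3, and capitals mark bases that do not align to the same base in AKR1C1.
AKR1C1: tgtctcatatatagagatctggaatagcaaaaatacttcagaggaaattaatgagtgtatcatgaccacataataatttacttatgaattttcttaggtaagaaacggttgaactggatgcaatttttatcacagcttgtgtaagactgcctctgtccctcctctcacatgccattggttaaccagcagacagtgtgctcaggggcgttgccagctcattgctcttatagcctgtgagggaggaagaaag
AKR1C2: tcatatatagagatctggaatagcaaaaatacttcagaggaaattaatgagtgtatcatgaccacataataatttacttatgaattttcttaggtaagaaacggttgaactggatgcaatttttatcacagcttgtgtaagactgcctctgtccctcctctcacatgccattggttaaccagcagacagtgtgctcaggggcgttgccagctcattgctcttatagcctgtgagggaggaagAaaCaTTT
AKR1C3: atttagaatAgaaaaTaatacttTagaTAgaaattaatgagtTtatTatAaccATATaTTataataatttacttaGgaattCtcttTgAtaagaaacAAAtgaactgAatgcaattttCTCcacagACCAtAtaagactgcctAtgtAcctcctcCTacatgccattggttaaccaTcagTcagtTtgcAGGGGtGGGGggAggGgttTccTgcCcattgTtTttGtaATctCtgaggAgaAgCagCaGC

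Aligned end to end, these stretches had 245 of 254 columns in common between AKR1C1 and AKR1C2 (96.5%), 187 of 265 between AKR1C1 and AKR1C3 (70.6%) and 189 of 264 between AKR1C2 and AKR1C3 (71.6%). Both strands were searched for TGACNNNGC, the core of the antioxidant response element that NRF2 binds, and for TTGCNNAA, a core bound by C/EBP factors. Of 35116 promoters in the table, 10.9% held the first and 9.05% the second within the same 250 bases. None of the 3 AKR1C stretches held either one, and neither did those of AKR1A1 and AKR1B1, which says only that these letters are not in this window. AKR7A2 held 3 antioxidant cores, 2 of them as printed on its strand. CBR1 held 1 match of each, both read on the other strand, and its stretch (chr21:36069774-36070023) is shown with both matches in capitals, the C/EBP core from 163 to 156 and the antioxidant core from 159 to 151 bases before the start, so that they overlap.
CBR1: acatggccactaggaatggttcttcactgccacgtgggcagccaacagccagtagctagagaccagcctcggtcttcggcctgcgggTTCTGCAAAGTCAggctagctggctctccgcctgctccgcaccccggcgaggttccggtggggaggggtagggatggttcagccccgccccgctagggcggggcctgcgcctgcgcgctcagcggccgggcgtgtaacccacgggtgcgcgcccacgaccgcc

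**Figure D1:**
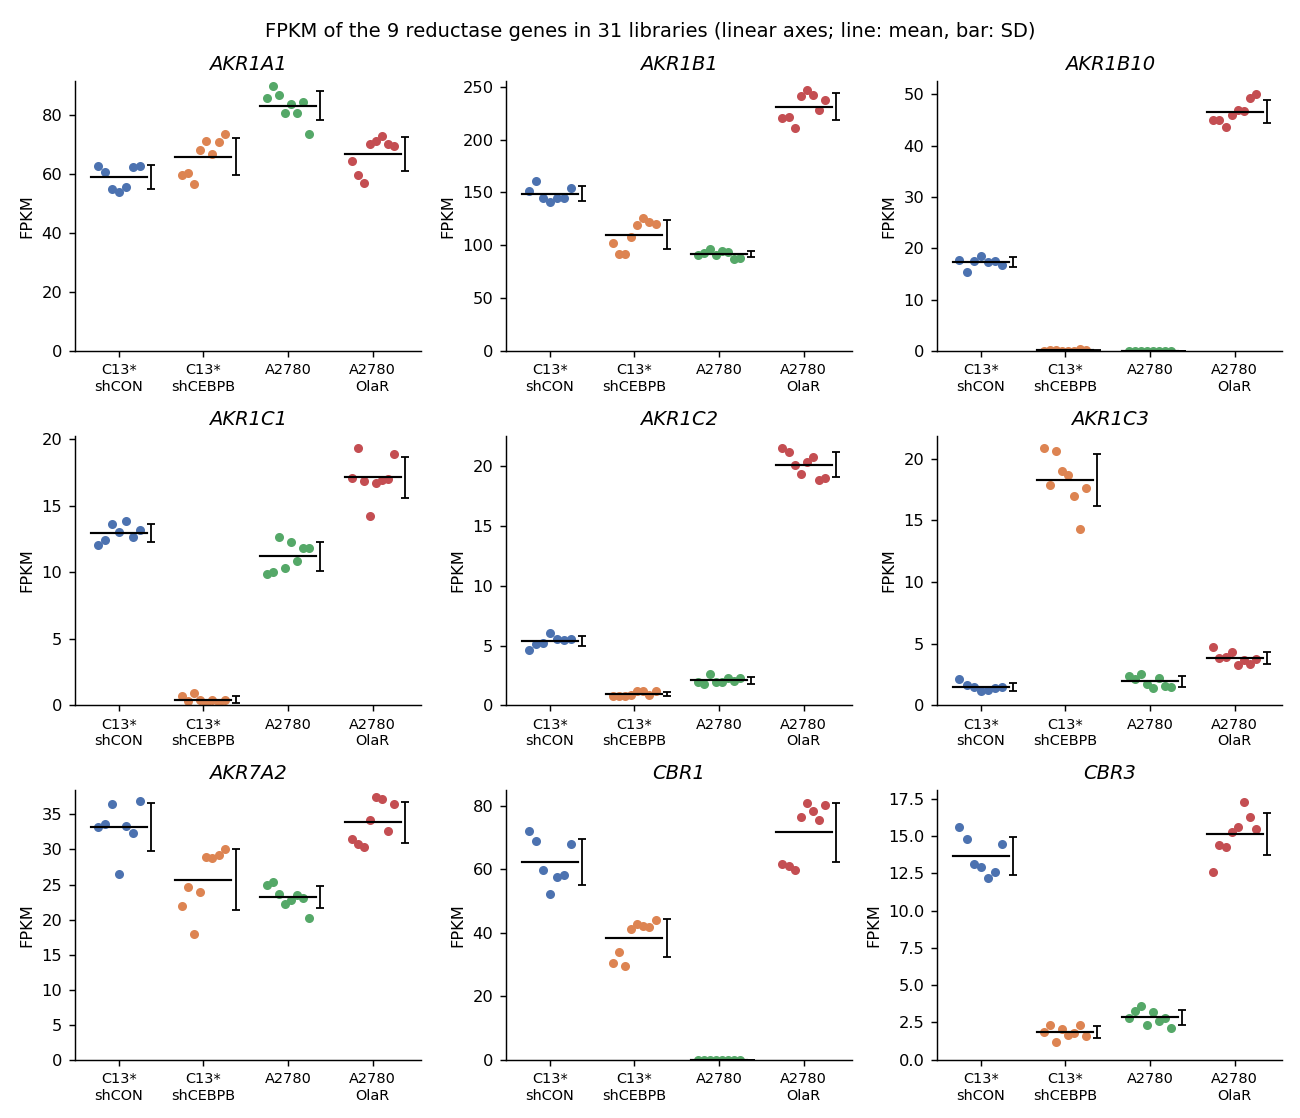
FPKM of each member (vertical axes, linear, 1 panel per gene) in the 4 groups (horizontal axis), 1 point per library, with the group mean as a line and the SD as a bar. AKR1C3 is highest in C13* shCEBPB, AKR1B10 is near 0 in C13* shCEBPB and A2780, and CBR1 is near 0 in A2780.

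Most of the reductases were lower in C13* shCEBPB than in C13* shCON, and AKR1C3 was higher. Fell, rose and after the knockdown name differences between these groups in what follows. Whether the lower CEBPB caused them was not tested. Of the 9 members, all were tested and all had an adjusted p under 0.05 in C13* shCEBPB against C13* shCON by limma on log2(FPKM + 1), and such genes are named called here. The members that fell were AKR1B10, AKR1C1, CBR3, AKR1C2, CBR1, AKR1B1 and AKR7A2, 7 in all, and those that rose were AKR1C3 and AKR1A1. Nearly all genes moved in this comparison, since 84.7% of 12006 genes were called, 38.9% higher and 45.7% lower, so a count of 9 called members is close to the background. The sizes stood further out, with a median absolute log2 fold change of 1.71 over the members against 0.57 over all genes tested, and the median signed change was -0.70 against -0.07. The members were chosen with earlier results of these data known, so such medians, here and below, are a description only. Control and knockdown libraries were fully separated for 7 members, and they overlapped for AKR1A1 and AKR7A2, while 66% of all genes tested were as fully separated.

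In the libraries labelled A2780 OlaR the reductases were mostly higher than in those labelled A2780. The A2780 OlaR libraries were unlike their labelled parent, as described above, and whether the differences came with resistance was not tested. All 9 members were called in A2780 OlaR against A2780, named the resistance comparison here, 8 higher and AKR1A1 lower, and the libraries of the groups overlapped for none of them. Of 12458 genes tested, 74.1% had no overlap and 89.8% were called, 40.1% higher and 49.7% lower. The median log2 fold change was 1.32 over the members and -0.12 over all genes. The knockdown and the resistance comparison share no library. However, C13* shCON and A2780 OlaR were alike as described above and stand on opposite sides of these comparisons. Opposite directions are therefore partly built in and are not independent results. Of the 9 members called in both, 8 went in opposite directions and 7 were lower in C13* shCEBPB and higher in A2780 OlaR, against 65.0% and 34.6% of the 8779 genes called in both. AKR1C3 was the member that was higher in both.

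**Figure D2:**
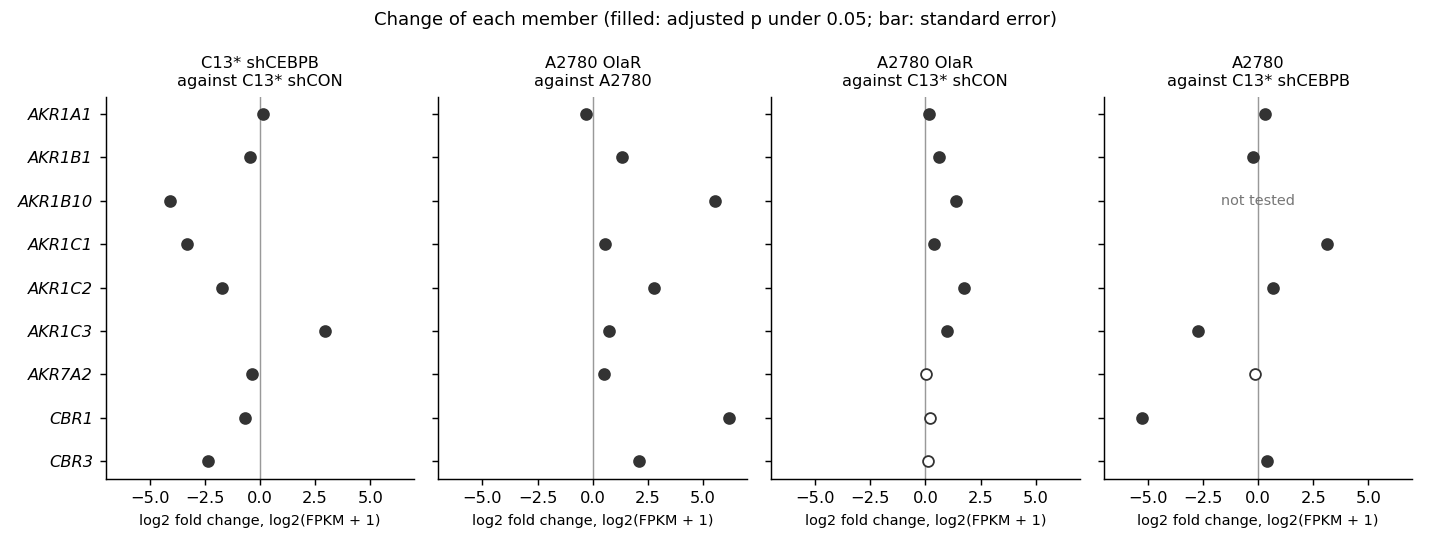
Log2 fold change of each member on the log2(FPKM + 1) scale (horizontal axis) in the 4 comparisons (panels), with filled points for an adjusted p under 0.05 and the standard error as a bar, which is mostly hidden by the point. AKR1C3 and AKR1A1 lie right of 0 in the first panel while the other 7 lie left, and only AKR1A1 lies left of 0 in the second.

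AKR1C1, which inactivates progesterone, was the AKR1C gene with the highest level in C13* shCON and in A2780. Its FPKM ran from 12.0 to 13.9 (median 13) in C13* shCON and from 0.131 to 0.908 (median 0.367) in C13* shCEBPB, so that every knockdown library was far below every control. The mean was 13 ± 0.656 (SD, n = 7) against 0.418 ± 0.258 (SD, n = 8), a ratio of 31 in favor of C13* shCON, and the log2 fold change was -3.32 (limma, standard error, SE, of 0.0915, adjusted p = 2.2e-16). In A2780 AKR1C1 was at 9.83 to 12.6 (median 11.3) and in A2780 OlaR at 14.2 to 19.3 (median 17), a difference of 0.57 on the log2 scale (limma, SE 0.0606, adjusted p = 3.24e-08). The order of the means was A2780 OlaR, C13* shCON, A2780 and C13* shCEBPB, and the libraries of the neighbours C13* shCON and A2780 overlapped.

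AKR1C2, which inactivates dihydrotestosterone and differs little from AKR1C1 in sequence, followed it in C13* but not in size in A2780 OlaR. It was at 4.66 to 6.05 FPKM (median 5.43) in C13* shCON and at 0.737 to 1.21 (median 0.868) in C13* shCEBPB, where the lowest control stood above the highest knockdown library. The mean fell from 5.37 ± 0.43 (SD, n = 7) to 0.948 ± 0.199 (SD, n = 8), with a log2 fold change of -1.71 (limma, SE 0.0646, adjusted p = 2.33e-14). In A2780 it was at 1.77 to 2.6 (median 1.96) and in A2780 OlaR at 18.8 to 21.5 (median 20.2), and the groups were far apart. The ratio of the means was 9.67 and the log2 fold change 2.78 (limma, SE 0.0514, adjusted p = 1.96e-20). No neighbours in the order of the 4 groups overlapped for AKR1C2.

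AKR1C3, which makes testosterone from androstenedione and prostaglandin F, was the member that rose most after the knockdown. Its FPKM were 1.19 to 2.12 (median 1.45) in C13* shCON and 14.3 to 20.9 (median 18.3) in C13* shCEBPB. All 8 knockdown libraries stood above all 7 controls. The mean was 12.1 times higher in C13* shCEBPB (18.3 ± 2.1, n = 8, against 1.5 ± 0.319, n = 7, SD), and the log2 fold change was 2.95 (limma, SE 0.083, adjusted p = 3.01e-16). A2780 held 1.42 to 2.57 FPKM (median 1.94) and A2780 OlaR 3.31 to 4.74 (median 3.8), also without overlap, with a log2 fold change of 0.74 (limma, SE 0.0844, adjusted p = 1.01e-07). The libraries of A2780 and C13* shCON overlapped for this gene.

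The sum of these 3 genes was alike in both C13* groups while its makeup was not. It was 19.8 ± 0.664 FPKM (SD, n = 7) in C13* shCON and 19.6 ± 2.23 (SD, n = 8) in C13* shCEBPB, while the share of AKR1C3 in the sum was 7.63% ± 1.88 in the controls (5.88% to 11.3%) and 93.0% ± 0.963 in the knockdown libraries (91.5% to 94.0%). The difference of 85.4 percentage points had an exact permutation p of 0.000311, two-sided, which is the smallest these libraries can give (adjusted p = 0.000373 over the 6 shares tested). AKR1C1 held 65.3% of the sum in C13* shCON and 2.06% in C13* shCEBPB. In A2780 the sum was 15.2 ± 1.27 and AKR1C1 held 73.6% of it, and in A2780 OlaR the sum was 41.1 ± 2.09 with 41.6% for AKR1C1 and 49.0% for AKR1C2. The AKR1C3 share was 12.8% ± 2.92 in A2780 and 9.39% ± 1.2 in A2780 OlaR (SD, n = 8 each), a difference of -3.36 percentage points (exact permutation test, two-sided, p = 0.012, adjusted p = 0.012). It was -5.81 in libraries 1 to 3 and -1.89 in libraries 4 to 8 of the library codes, where the exact test did not pass. The sizes of sums and shares, here and for the pairs below, depend on the gene lengths behind the FPKM, which are not given. The main transcripts have 6543 bp in AKR1C1, 3215 in AKR1C2 and 1186 in AKR1C3. With other lengths, the sums of the C13* groups might not be alike.

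**Figure D3:**
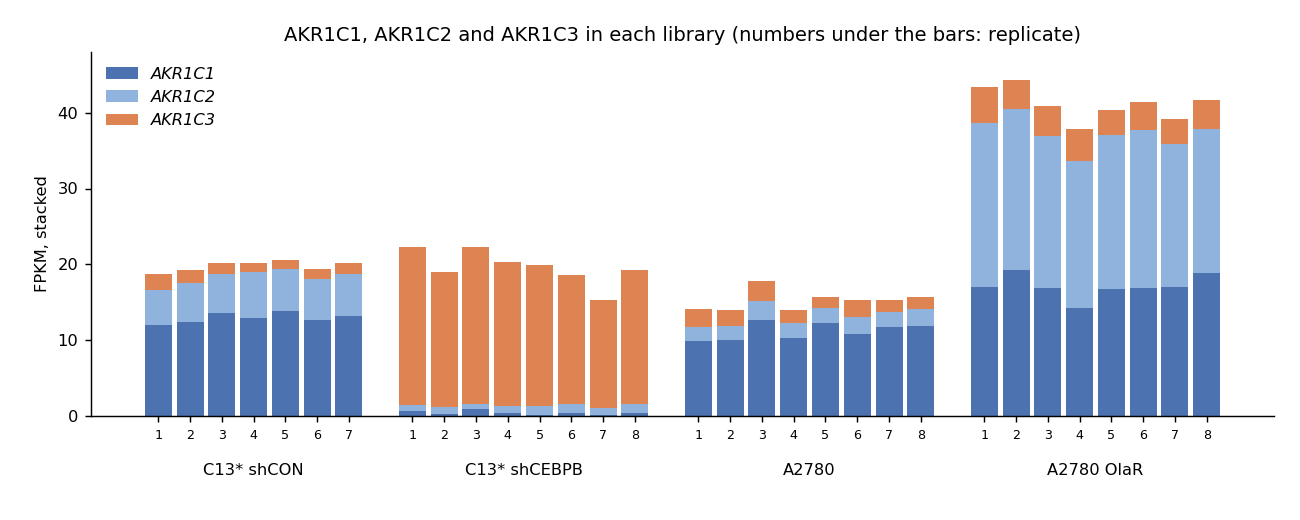
FPKM of AKR1C1, AKR1C2 and AKR1C3 stacked (vertical axis, from 0) in each of the 31 libraries (horizontal axis, by group and replicate). C13* shCON and C13* shCEBPB have sums near 20 FPKM made up of different genes, and A2780 OlaR has the highest sums, from 37.9 to 44.3.

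AKR1B1, aldose reductase and the first enzyme of the polyol pathway, had the highest level of the 9 members in each group. It was at 140 to 161 FPKM (median 145) in C13* shCON, 91.6 to 125 (median 113) in C13* shCEBPB, 86.9 to 96.1 (median 91.6) in A2780 and 211 to 247 (median 233) in A2780 OlaR. The knockdown libraries lay below all controls and the A2780 OlaR libraries above all A2780 ones. Its mean in C13* shCEBPB was 0.74 times that in C13* shCON (log2 fold change -0.44, limma, SE 0.0693, adjusted p = 1.25e-05), and in A2780 OlaR it was 2.52 times that in A2780 (1.32, limma, SE 0.036, adjusted p = 1.05e-17).

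AKR1B10, which reduces retinal and lipid aldehydes, was present in C13* shCON and A2780 OlaR and near 0 in the other groups. In C13* shCON it was at 15.4 to 18.5 FPKM (median 17.5). In C13* shCEBPB the 8 libraries had 0.0303, 0.0889, 0.0754, 0.0428, 0, 0.03, 0.341 and 0.112. A2780 OlaR held 43.6 to 50.1 (median 46.4), and A2780 was listed at 0 in 7 libraries and at 0.0341 in replicate 3. The groups did not overlap in either comparison (exact permutation test, two-sided, p = 0.000311 for the knockdown and p = 0.000155 for resistance, the smallest possible values). The fitted differences of -4.07 and 5.57 on the log2(FPKM + 1) scale depend on the pseudocount, since with a pseudocount of 0.01 they were -8.06 and 11.9, and no fold is given. AKR1B10 made up 10.4% ± 0.923 of the sum of both AKR1B members in C13* shCON (SD, n = 7) and 0.0807% ± 0.0878 in C13* shCEBPB (SD, n = 8), and 16.8% ± 0.675 in A2780 OlaR (SD, n = 8) against 0 in 7 A2780 libraries.

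CBR1, which reduces quinones, prostaglandin E and anthracyclines, was near 0 in A2780 and among the higher members in A2780 OlaR. It was listed at 0 in 7 A2780 libraries and at 0.0539 FPKM in replicate 2, and it was at 59.7 to 80.8 (median 75.9) in A2780 OlaR. On the log2(FPKM + 1) scale the difference was 6.16, and with a pseudocount of 0.01 it was 12.5, so that no fold is given (exact permutation test, two-sided, p = 0.000155). In C13* shCON CBR1 was at 52.3 to 72 (median 59.8) and in C13* shCEBPB at 29.4 to 44.1 (median 41.6). The groups did not overlap, the mean in C13* shCEBPB was 0.613 times that in C13* shCON, and the log2 fold change was -0.70 (limma, SE 0.0966, adjusted p = 2.55e-06). The promoter printed above is the one with both cores.

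CBR3, a close relative of CBR1 with a narrower range of substrates, fell further than CBR1 after the knockdown and was still found in A2780. It was at 12.2 to 15.6 FPKM (median 13.1) in C13* shCON and at 1.21 to 2.35 (median 1.82) in C13* shCEBPB, with every knockdown library under every control. The mean was 7.36 times higher in C13* shCON (log2 fold change of C13* shCEBPB -2.37, limma, SE 0.083, adjusted p = 7.72e-15). In A2780 it was at 2.11 to 3.6 (median 2.8) and in A2780 OlaR at 12.6 to 17.3 (median 15.4), which is a ratio of the means of 5.34 and a log2 fold change of 2.08 (limma, SE 0.0753, adjusted p = 1.14e-15). CBR3 made up 18.0% ± 0.82 of the sum of CBR1 and CBR3 in C13* shCON (SD, n = 7), 4.7% ± 1.07 in C13* shCEBPB (SD, n = 8), 99.8% ± 0.573 in A2780 and 17.5% ± 1.25 in A2780 OlaR (SD, n = 8 each). The difference was -13.3 percentage points for the knockdown (exact permutation test, two-sided, p = 0.000311, adjusted p = 0.000373) and -82.3 for resistance (p = 0.000155, adjusted p = 0.000373).

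AKR1A1 and AKR7A2 had the smallest changes of the 9 members in both comparisons. AKR1A1, a general aldehyde reductase, was at 53.8 to 62.8 FPKM (median 60.8) in C13* shCON, 56.6 to 73.6 (median 67.4) in C13* shCEBPB, 73.7 to 89.7 (median 83.9) in A2780 and 56.9 to 72.7 (median 69.8) in A2780 OlaR. The first pair of groups overlapped and the second did not, and AKR1A1 was the only member with its highest mean in A2780. Its log2 fold change was 0.15 for the knockdown (limma, SE 0.0613, adjusted p = 0.0271) and -0.31 for resistance (limma, SE 0.0524, adjusted p = 1.49e-05). The knockdown call was lost with quantile normalization (0.04, adjusted p = 0.479). AKR7A2, which reduces aflatoxin aldehydes and succinic semialdehyde, was at 26.5 to 36.9 (median 33.3) in C13* shCON, 18.0 to 30.1 (median 26.8) in C13* shCEBPB, 20.2 to 25.3 (median 23.3) in A2780 and 30.4 to 37.5 (median 33.5) in A2780 OlaR. Its log2 fold change was -0.37 for the knockdown (limma, SE 0.0993, adjusted p = 0.00231) and 0.52 for resistance (limma, SE 0.0533, adjusted p = 1.8e-08).

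A2780 OlaR and C13* shCON, the groups nearest to each other, still differed in the reductases. AKR1C2, AKR1B10, AKR1C3, AKR1B1, AKR1C1 and AKR1A1 were called higher in A2780 OlaR and no member was called lower, in a comparison where 42.2% of 11547 genes were called, 19.3% higher and 22.9% lower. Only 68 genes (0.589%) were called with a fold change of at least 2, and AKR1C2 and AKR1B10 were among them. AKR1C2 had a ratio of the means of 3.75 (log2 fold change 1.73, limma, SE 0.0467, adjusted p = 9.52e-15) and ranked 10 by absolute log2 fold change among all genes tested. AKR1B10 had a ratio of 2.7 (1.38, limma, SE 0.0412, adjusted p = 3.23e-14) and ranked 23. The libraries did not overlap for these members or for AKR1C3 (0.96), AKR1B1 (0.63) and AKR1C1 (0.37), while they overlapped for AKR1A1 (0.18, adjusted p = 0.0199), and 16.6% of all genes tested had no overlap. The AKR1A1 call was lost within libraries 1 to 3 (0.02, adjusted p = 0.781, limma) and with the replicate number or the library number as a block (adjusted p = 0.0554 and 0.0627), and AKR7A2 was called lower within libraries 1 to 3 (-0.15, adjusted p = 0.0226). CBR1 (0.19, adjusted p = 0.0714), CBR3 (0.14, adjusted p = 0.0868) and AKR7A2 (0.03, adjusted p = 0.753) were not called. The comparison shares its libraries with the knockdown and the resistance comparisons.

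The remaining pair was A2780 and C13* shCEBPB, and this comparison too shares its libraries with the first 2. Of the 8 members tested, AKR1C1, AKR1C2, CBR3 and AKR1A1 were called higher in A2780, CBR1, AKR1C3 and AKR1B1 were called lower, and AKR7A2 was not called (-0.13, adjusted p = 0.181, limma). AKR1B10 did not reach the lowest level tested, an FPKM of at least 1 in 8 libraries. In this comparison 88.9% of 12234 genes were called, 51.5% higher and 37.4% lower, so the members' count is near the background, and their median absolute log2 fold change of 0.55 was below the 0.75 of all genes. Within libraries 1 to 3 the call of AKR1B1 was lost (-0.03, adjusted p = 0.624, limma), and within libraries 4 to 8 AKR7A2 was called lower (-0.32, adjusted p = 0.000162). AKR1C1 had a mean 26.8 times higher in A2780 (log2 fold change 3.12) and AKR1C3 a mean 9.45 times higher in C13* shCEBPB (log2 fold change of A2780 -2.72). CBR1, at 29.4 to 44.1 FPKM in C13* shCEBPB and listed at 0 in 7 A2780 libraries, had a difference of -5.27 on the log2(FPKM + 1) scale. The median of all genes was 0.178 here and 0.06 with quantile normalization, and the direction of CBR3 (0.43) turned with it (-0.03, adjusted p = 0.748).

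Each library code holds a number from 1 to 8, and libraries 1 to 3 stood apart from the others for some members. In C13* shCEBPB, AKR1A1 was at 56.6 to 60.4 FPKM in libraries 1 to 3 and at 66.7 to 73.6 in libraries 4 to 8, and in A2780 OlaR at 56.9 to 64.4 and 69.5 to 72.7. AKR1B1 was likewise lower in libraries 1 to 3 of C13* shCEBPB (91.6 to 102 against 107 to 125) and of A2780 OlaR (211 to 221 against 228 to 247). The shift was not common to all groups. In A2780, AKR1A1 was higher in libraries 1 to 3 (85.9 to 89.7 against 73.7 to 84.2), and in C13* shCON the ranges overlapped (54.8 to 62.6 and 53.8 to 62.8). The change of AKR1A1 in A2780 OlaR against A2780 was -0.53 in libraries 1 to 3 and -0.18 in libraries 4 to 8. No label says what the library number stands for. Within libraries 1 to 3 the knockdown change of AKR1A1 was -0.012 and within libraries 4 to 8 it was 0.26, and that of AKR7A2 was -0.66 and -0.18, of which the latter was not called. Those of CBR1 were -1.07 and -0.46, and those of AKR1C3 2.92 and 2.98. Between A2780 OlaR and C13* shCON, CBR1, CBR3 and AKR7A2 were lower in libraries 1 to 3 (-0.13, -0.07 and -0.15) and higher in libraries 4 to 8 (0.41, 0.27 and 0.15), and only the values of AKR7A2 in the first range and of CBR1 and CBR3 in the second were called. Without C13* shCON replicate 1, CBR1 (0.23) and CBR3 (0.17) were called in that comparison, which made 8 members. Of 11571 genes tested in that setting, 4648 were called.

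**Figure D4:**
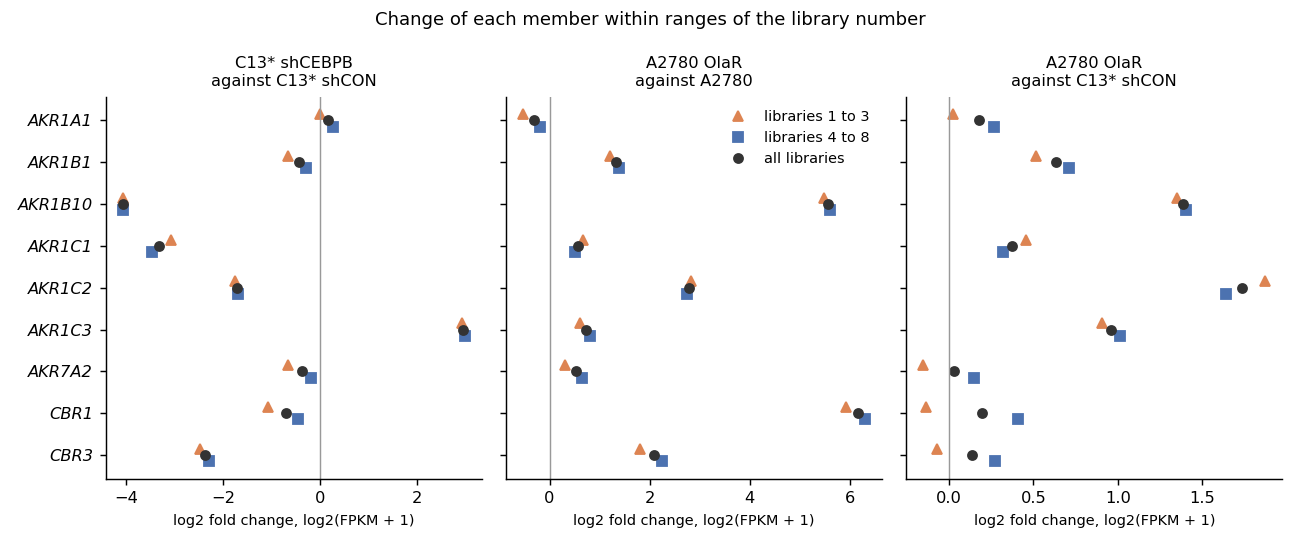
Log2 fold change of each member on the log2(FPKM + 1) scale (horizontal axes, of different width) in 3 comparisons (panels), for all libraries (circles), libraries 1 to 3 (triangles) and libraries 4 to 8 (squares). In the third panel the triangles of AKR7A2, CBR1 and CBR3 lie left of 0 and their squares right of it.

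Other genes of the same families were mostly low. Of 10 listed, 9 were in the table and 4 were tested after the knockdown, with 2 higher and 2 lower (median -0.33 against -0.07 over all genes), and 4 were tested for resistance, with 1 higher and 3 lower (median -1.93 against -0.12). CBR4, a mitochondrial carbonyl reductase, was at 11.4 ± 0.84 FPKM in C13* shCON (SD, n = 7) and fell to 2.86 ± 0.399 (SD, n = 8) after the knockdown (log2 fold change -1.69). AKR1E2 was at 33.6 to 39.8 in A2780 and at 3.19 to 5.23 in A2780 OlaR (-2.93). AKR1B15, a close relative of AKR1B10, had low values with the same order of groups, with means of 0.938 in A2780 OlaR, 0.319 in C13* shCON and at most 0.0103 in the others, and AKR1C4 was at 0 in every C13* shCON and A2780 library, and both were named after their values were seen. Of 12 other short-chain carbonyl reductases, 3 rose and 7 fell after the knockdown, and 4 were higher and 4 lower in A2780 OlaR than in A2780. DHRS9, a retinol dehydrogenase, was at 5.56 to 7.74 in C13* shCON and at most 0.0302 in C13* shCEBPB, and DHRS2 was at 44.4 to 56.4 in A2780 and 3.94 to 5.67 in A2780 OlaR (-3.19).

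Enzymes that share substrates or cofactor with the members were counted next. Of 14 steroid and prostaglandin enzymes, 2 rose and 7 fell among 10 tested after the knockdown, and 8 were higher and 2 lower among 11 tested for resistance (median 0.46 against -0.12 over all genes). PTGS1, a cyclooxygenase upstream of the prostaglandins, was at 11.2 ± 0.509 FPKM in C13* shCON (SD, n = 7) and rose to 47.8 ± 5.35 (SD, n = 8) after the knockdown (2.0). PTGES, a prostaglandin E synthase, was at 4.79 to 5.38 in A2780 and 146 to 160 in A2780 OlaR (4.68). Of the 3 genes listed around the polyol pathway of AKR1B1, SORD rose while KHK and SLC2A1 fell after the knockdown. All 3 were higher in A2780 OlaR than in A2780. KHK, which phosphorylates fructose, was at 2.96 to 4.61 in C13* shCON and 0.12 to 0.36 in C13* shCEBPB (-1.97), and SLC2A1, a glucose transporter, was at 18.6 to 20.9 in A2780 and 58.4 to 68.9 in A2780 OlaR (1.65). Of 7 genes of NADPH supply, 2 rose and 4 fell after the knockdown (median -0.36), and 5 were higher and 1 lower in A2780 OlaR than in A2780 (median 0.69). ME1, malic enzyme, fell from 31.1 ± 1.95 (SD, n = 7) to 11.6 ± 1.56 (SD, n = 8) after the knockdown (-1.36).

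Among 10 regulators of NRF2 and the C/EBP family, 4 rose and 6 fell after the knockdown, and 3 were higher and 6 lower in A2780 OlaR than in A2780. NFE2L2, which encodes NRF2, had means of 40.5 ± 4.67 FPKM in C13* shCON (SD, n = 7), 32.6 ± 6.29 in C13* shCEBPB, 39.1 ± 2.75 in A2780 and 45.0 ± 7.27 in A2780 OlaR (SD, n = 8 each), and KEAP1, which marks NRF2 for breakdown, had 37.5 ± 4.48, 13.1 ± 1.98, 26.8 ± 2.79 and 43.7 ± 6.28. Both genes were named after their values were seen. MAFK, a partner of NRF2, rose from 6.22 to 12.1 in C13* shCON to 34.6 to 90.2 in C13* shCEBPB (2.70). CEBPG, another C/EBP gene, was at 68.7 to 76.9 in A2780 and 17.4 to 21.8 in A2780 OlaR (-1.83). Of 13 other enzymes known as NRF2 targets, 5 rose and 8 fell after the knockdown (median -0.78 against -0.07 over all genes), and 10 were higher and 2 lower among 12 tested in A2780 OlaR against A2780 (median 1.14 against -0.12). ALDH3A1, an aldehyde dehydrogenase, moved most in both, from 890 to 1099 FPKM in C13* shCON to 6.81 to 12.7 in C13* shCEBPB (-6.56) and from at most 0.184 in A2780 to 1197 to 1602 in A2780 OlaR (10.4). These lists are described by their counts, and the changes in parentheses are log2 fold changes from limma on the log2(FPKM + 1) scale.

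Marker lists of other cell types moved with both comparisons. The summed level of 5 squamous markers was 1551 to 1822 FPKM in C13* shCON, at most 0.316 in C13* shCEBPB, at most 0.22 in A2780 and 1760 to 2129 in A2780 OlaR. That of 4 mesenchymal markers was 32.7 to 38.0 in C13* shCON, 349 to 377 in C13* shCEBPB, 857 to 898 in A2780 and 24.5 to 28.9 in A2780 OlaR, and that of 8 ovarian carcinoma markers was 861 to 954, 1886 to 2233, 98.3 to 106 and 846 to 944 in the same order. Such sums mostly follow their highest genes. In C13* shCEBPB the means of KRT8, KRT7, KRT18 and MUC1 were 882, 583, 535 and 92.4. Those of MUC16, EPCAM, PAX8 and WT1 were 0.604, 0.567, 0.536 and 0.0232. In A2780 the means of VIM, CDH2, ZEB1 and FN1 were 809, 58.5, 14.5 and 0.524. All 5 squamous markers fell after the knockdown and were higher in A2780 OlaR than in A2780 (medians -5.65 and 5.15), and KRT5 changed most (-10.6 and 10.8, with A2780 listed at 0 in every library). Of the 4 mesenchymal markers, 2 rose and 2 fell after the knockdown, with VIM at 4.99, and 1 was higher and 3 lower in A2780 OlaR, with VIM at -9.45. Of 6 ovarian carcinoma markers tested, 4 rose and 2 fell after the knockdown, with EPCAM at -6.17, and 5 were higher and 1 lower in A2780 OlaR than in A2780, with KRT8 at 6.13. Their part in the changes of the reductases was not tested.

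Across the 31 libraries, the pattern of each member was compared with that of 12958 other genes by Pearson's r of log2(FPKM + 1). The libraries form 4 groups, so these values mostly restate the group means and are a description only. AKR1B10 was most like PKP1 (r = 0.999), SLC2A10 (r = 0.999) and FAM84A (r = 0.998), and CBR1 was most like EHD2 (r = 0.999), RHOD (r = 0.998) and CUL9 (r = 0.998), which all had means under 1 FPKM in A2780. For CBR3 the nearest genes were C22orf23, CRABP2 and CD40 (r = 0.995, 0.991 and 0.991). The nearest of AKR1C1 were SLC16A14, NMRK1 and AGPAT3 (r = 0.994, 0.993 and 0.992), those of AKR1C2 were FAM131B, WNT10A and KRT4 (r = 0.98, 0.979 and 0.978), and those of AKR1C3 were ERI3, ALPP and KDM1A (r = 0.974, 0.972 and 0.971). AKR1B1 was nearest to NECAB3, LGALS9 and METTL7A (r = 0.972, 0.971 and 0.966), AKR1A1 to STK25, AES and MAP3K10 (r = 0.959, 0.954 and 0.950), and AKR7A2 to MXD3, PIF1 and CCDC61 (r = 0.953, 0.952 and 0.952). Among the members themselves, AKR1B10 and CBR3 had the highest r (0.969), and AKR1C1 and AKR1C3 the lowest (-0.893).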

How the data were processed

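mRNA of 31 cell line libraries in 4 labelled groups was analysed. The values deposited by the authors are FPKM, 1 table for all libraries. The study states paired-end reads, mapping to hg38 with TopHat, counting with HTSeq and edgeR on the counts, and the submitters' processing notes also list FastQC. The tool and gene annotation behind the FPKM are not given in the sources used here. FPKM are not counts, so limma was used and no counts were rebuilt.

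Of 19225 rows, 4 with 2 repeated symbols were left out. Changes were computed for all genes by limma 3.58.1 in R 4.3.3, with a linear fit and an empirical Bayes trend. The scale was log2(FPKM + 1), tests were two-sided and p-values were adjusted by Benjamini-Hochberg. A gene was tested when the number of libraries with FPKM of at least 1 reached the size of the smaller group. Each comparison used its own 2 groups. Fold changes on this scale understate those of low genes. Single genes and shares had exact permutation tests over libraries (scipy 1.17.1 and numpy 2.4.6 in Python 3.11.15, with pandas 2.3.3 for tables and matplotlib 3.10.9 for figures). Tested on simulated data for the knockdown comparison (11802 genes), limma found 184 of 193 changed genes and made 13 false calls (6.6% of its calls). In the simulation most genes were unchanged, unlike in the real comparison, and the noise was independent between libraries. It therefore does not give the error rate for these data.

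All 9 members are named, with 1 gene per list and comparison (the largest absolute log2 fold change) and the 3 most similar genes per member. The gene of 1 list in 1 comparison is not reported here. Members and lists were chosen with earlier results of these data known. The alternatives were other pseudocounts, filters, scalings, thresholds, blocks, a fit of all groups and library ranges, and their effect is given at the end.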

Additional observations from a re-analysis of the deposited data

Results flagged for a closer look

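In the 36 sets of values formed by the 9 members and the 4 groups, 3 had a library whose gap to the nearest other exceeded Dixon's limit. The chance rate of about 1 in 20 (5%) is for normally distributed values. It does not apply to a set listed at 0 in all libraries but 1, which always exceeds the limit. AKR1B10 was at 0.341 FPKM in C13* shCEBPB replicate 7, while the other 7 libraries were at 0 to 0.112. It was at 0.0341 in A2780 replicate 3 and listed at 0 in the other A2780 libraries. CBR1 was at 0.0539 in A2780 replicate 2 and listed at 0 in the others. All 3 values are low beside the levels of these genes in C13* shCON and A2780 OlaR.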

How the results depend on the processing

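Of 35 member log2 fold changes, 26 kept their direction and their side of the threshold under every alternative that left the thresholds unchanged. Of the 398 member values from these alternatives, 379 did. The stricter thresholds are not part of these counts. Requiring a fold change of at least 2 reduced the called members from 9 to 5 after the knockdown, from 9 to 5 for A2780 OlaR against A2780, from 6 to 2 against C13* shCON and from 7 to 3 for A2780 against C13* shCEBPB. Over all genes tested, 3539 of 12006, 4446 of 12458, 68 of 11547 and 4710 of 12234 were called at this limit, in the same order. Within libraries 1 to 3 the direction turned for AKR1A1 after the knockdown (-0.012), for AKR7A2 (-0.15), CBR1 (-0.13) and CBR3 (-0.068) between A2780 OlaR and C13* shCON, and for AKR7A2 (0.20) between A2780 and C13* shCEBPB. Quantile normalization turned CBR3 in that last comparison (-0.0295). The causes were not tested.

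With 3 libraries a group no exact test can pass (smallest p = 0.1), so the shares in libraries 1 to 3 are values: 84.3 and -5.81 percentage points for AKR1C3, -9.95 and 17 for AKR1B10, and -12.4 and -81.0 for CBR3, for the knockdown and for resistance. In libraries 4 to 8 the AKR1C3 share differed by -1.89 for resistance (exact permutation adjusted p = 0.167).

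Same-numbered libraries deviated from their group means with a mean correlation of -0.148 after the knockdown and -0.233 for resistance, so the numbers were not taken to pair the libraries. With the replicate number as a block, where a library with no partner has its own level, the called members were 8 after the knockdown (AKR1A1 lost, 0.13, adjusted p = 0.0741, limma), 9 for resistance, 5 for A2780 OlaR against C13* shCON (AKR1A1 lost, adjusted p = 0.0554) and 7 for A2780 against C13* shCEBPB. Over all genes tested with this block, 9885 of 12006, 10960 of 12458, 3436 of 11547 and 10655 of 12234 were called, in the same order. Without the block, 4876 genes were called for A2780 OlaR against C13* shCON. FPKM without read totals limit what can be said of values near 0.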
